A study of Homo sapiens with 3 samples.

Results

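The genes described here encode the factors that start and extend protein synthesis on the ribosome, together with a few proteins that bind or modify those factors. They were taken as every protein-coding row of the gene count table whose symbol begins with EIF1, EIF2S, EIF2B, EIF3, EIF4, EIF5, EIF6, EEF1 or EEF2, which leaves out the eIF2 kinases. This gave 65 genes of the 58735 in the table, and 50 of the 65 are subunits or factors in their own right. RNA was sequenced from HaCaT cells, an established line of human keratinocytes, labelled wild type. The cells were held for 24 h in DMEM without serum in 3 conditions: no particles (control), carbon black at 25 µg/mL (CB), or the material labelled S1650b at 50 µg/mL. The study's title names particulate matter and carbon black, and the comparisons ask what each exposure does to keratinocytes. Each condition is 1 library, so no difference below has a replicate check and no p-value is given.

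Translation of most messenger RNAs begins when the cap-binding factor eIF4E, the scaffold eIF4G and the RNA helicase eIF4A bring the small ribosomal subunit, carrying eIF3 and a ternary complex of eIF2, GTP and initiator tRNA, to the capped end of the RNA. The subunit scans to a start codon under the control of eIF1, eIF1A and eIF5, eIF5B joins the large subunit, and eEF1A and eEF2 then drive elongation. The step is adjusted by 4E-BP proteins, which hold eIF4E away from eIF4G, and by eIF2B, which recharges eIF2 with GTP and is blocked when eIF2 is phosphorylated. Many RNAs that encode elongation factors and ribosomal proteins begin with a 5′ terminal oligopyrimidine (TOP) run, a C followed by pyrimidines, and their translation responds to mTOR signalling.

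Such runs stood at an annotated start of several members, and the sequences are given first because the members with and without one are compared below. A RefSeq start on GRCh38.p14 could be matched for 52 of the 65 members. A run, meaning a C at the annotated start followed by at least 4 bases that are each C or T, read on the gene's own strand, stood at a start of 11 members (21.2% of the 52). Of the 10611 genes past the filter described below that have a start sequence, 7.45% had a run. By start rather than by gene a run stood at 11 of 69 member starts (15.9%) and at 4.07% of the 35116 starts in the table. The share was 4.59% at starts of protein-coding genes. With a run allowed within 5 bases of the start, the shares were 34.8% of member starts and 21.1% of all starts. Of the 8 below, the first 5 are the members with a run whose folds in CB had counting intervals below 1, and the last 3 are those with intervals above 1. Each window holds 10 bases before the start and 20 from it, 5′ to 3′ on the gene's strand, with the run in capitals.
EEF1A1: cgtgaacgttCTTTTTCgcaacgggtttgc
EEF2: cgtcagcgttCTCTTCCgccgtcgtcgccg
EIF3F: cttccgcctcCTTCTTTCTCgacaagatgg
EIF4A2: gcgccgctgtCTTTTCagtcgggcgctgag
EIF4B: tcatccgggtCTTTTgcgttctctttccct
EIF3D: cgcatgtttcCTCTTTTCCTggtttctcaa
EIF3M: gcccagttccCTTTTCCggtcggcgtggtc
EEF1B2: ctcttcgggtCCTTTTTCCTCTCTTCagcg
The windows lie at chr6:73521013-73521042 (minus strand) for EEF1A1, chr19:3985444-3985473 (minus) for EEF2, chr11:7987327-7987356 (plus) for EIF3F, chr3:186783567-186783596 (plus) for EIF4A2, chr12:53006446-53006475 (plus) for EIF4B, chr22:36529147-36529176 (minus) for EIF3D, chr11:32583821-32583850 (plus) for EIF3M and chr2:206159885-206159914 (plus) for EEF1B2. EIF3K, EIF2S3 and its retrocopy EIF2S3B also had a run. A match describes letters at an annotated start, not the start used in these cells.

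The libraries held 20658247 (control), 20946139 (CB) and 20417744 (S1650b) counts, and 59 of the 65 members reached 1 CPM (a count scaled by library size) in at least 1 library. EIF4EBP3 (8, 2 and 15 counts in control, CB and S1650b) and EEF1G (0, 0 and 2) did not, nor did EIF4E1B, EIF1AY and the 2 readthrough genes EEF1AKMT4-ECE2 and EEF1E1-BLOC1S5. The keratinocyte markers KRT5, KRT14, KRT6A, KRT17, TP63 and SFN were detected in all 3 libraries, with sums of 13565 CPM (control), 12629 (CB) and 5792 (S1650b). From control to S1650b, KRT5 (6979 to 2225 CPM), KRT14 (4053 to 1402), KRT6A (251 to 65.0) and SFN (1594 to 1186) fell. KRT17 (545 to 735) and TP63 (143 to 178) rose. The 5 fibroblast markers summed to 92.4, 30.3 and 12.6 CPM, the 4 endothelial markers to 54.6, 27.8 and 44.1 CPM, the 5 melanocyte markers to 9.72, 8.23 and 9.50 CPM, and the 4 immune markers to at most 0.134 CPM. CDH5 alone gave 51.3, 25.1 and 41.2 CPM of the endothelial sums. In the control, 2 fibroblast, 2 melanocyte, 3 immune and 1 endothelial markers were at 0. The part these shifts play in the results below was not tested. In bulk RNA, fewer cells that express a gene and less of its RNA per cell cannot be told apart.

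A fold below is the ratio of counts after scaling by TMM (trimmed mean of M-values), exposed over control. The range in parentheses is its exact 95% interval, which covers counting error only. It treats sequenced fragments as independent molecules, which they are not. With 1 library per condition it cannot cover the spread between cultures. A gene is called higher or lower where the fold reached 1.5 in that direction and the interval lay on that side of 1. In CB, 3 of the 59 members were higher (EIF2B2, EIF2B3 and EIF4EBP1) and 0 were lower, beside 4.86% of all 14619 genes past the filter called higher and 10.5% called lower. The median log2 fold of the members in CB was 0.19, beside 0.00 for all genes. Intervals lay above 1 for 35 members (59.3%, beside 27.7% of all genes) and below 1 for 12 (20.3%, beside 25.9%). Most members therefore had CB values slightly over the control, while few passed the call. Among genes with a mean of at least 10 CPM, whose intervals are narrower, 37.1% of 9450 had intervals above 1 and 26.4% below. With a ratio of at least 5 to 4 in place of 1.5, 15 members (25.4%) were higher, beside 13.6% of all genes, and 3 (EIF3F, EIF4EBP2 and EEF1A1, 5.08%) were lower, beside 17.1%.

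In S1650b, 8 of the 59 members were higher than the control and 9 were lower, beside 22.1% and 19.2% of all genes. Both shares of members (13.6% and 15.3%) were below those of all genes, and the median log2 fold was -0.12, beside -0.04. Intervals lay above 1 for 19 members (32.2%, beside 34.1% of all genes) and below 1 for 27 (45.8%, beside 39.2%). Folds ran from 0.452 (EIF3C) to 3.87 (EIF3CL). Scaling by total counts raised the median log2 fold of all genes by 0.19 and gave 11 members higher (18.6%, beside 29% of all genes) and 5 lower (8.47%, beside 11.9%). Removing trends of the fold with exon length and GC content gave 3 higher (5.08%, beside 14.7%) and 11 lower (18.6%, beside 17.7%). Against CB, S1650b had 8 members higher and 17 lower, beside 26.1% and 20.8% of all genes, with a median log2 fold of -0.26. Intervals lay above 1 for 18 members (beside 38.1% of all genes) and below 1 for 29 (beside 38.3%). Here total-count scaling gave 11 higher and 10 lower, beside 33.0% and 14.1% of all genes. Removal of both trends gave 2 higher and 16 lower, beside 19.1% and 21.3%. The lowest folds of S1650b against CB were those of EIF4EBP1 (0.342), EIF5A (0.414), EIF5AL1 (0.437), EEF1B2 (0.455), EIF3K (0.475) and EEF1AKMT4 (0.507), followed by EIF2B2 and EIF3C (0.540 each). The highest were those of EIF3CL (2.90), EIF3A (2.24), EIF4E3 (2.23), EIF4G3 (2.08), EIF4G2 (1.92), EIF3E (1.76), EIF5B (1.72) and EIF4A2 (1.56). With both trends removed, 14 of these 25 calls against CB were kept, and of the highest only those of EIF3CL and EIF3A. The 3 comparisons share libraries, so their values are not independent. CB and S1650b were also given at different doses, so material and dose cannot be told apart in S1650b against CB.

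**Figure D1:**
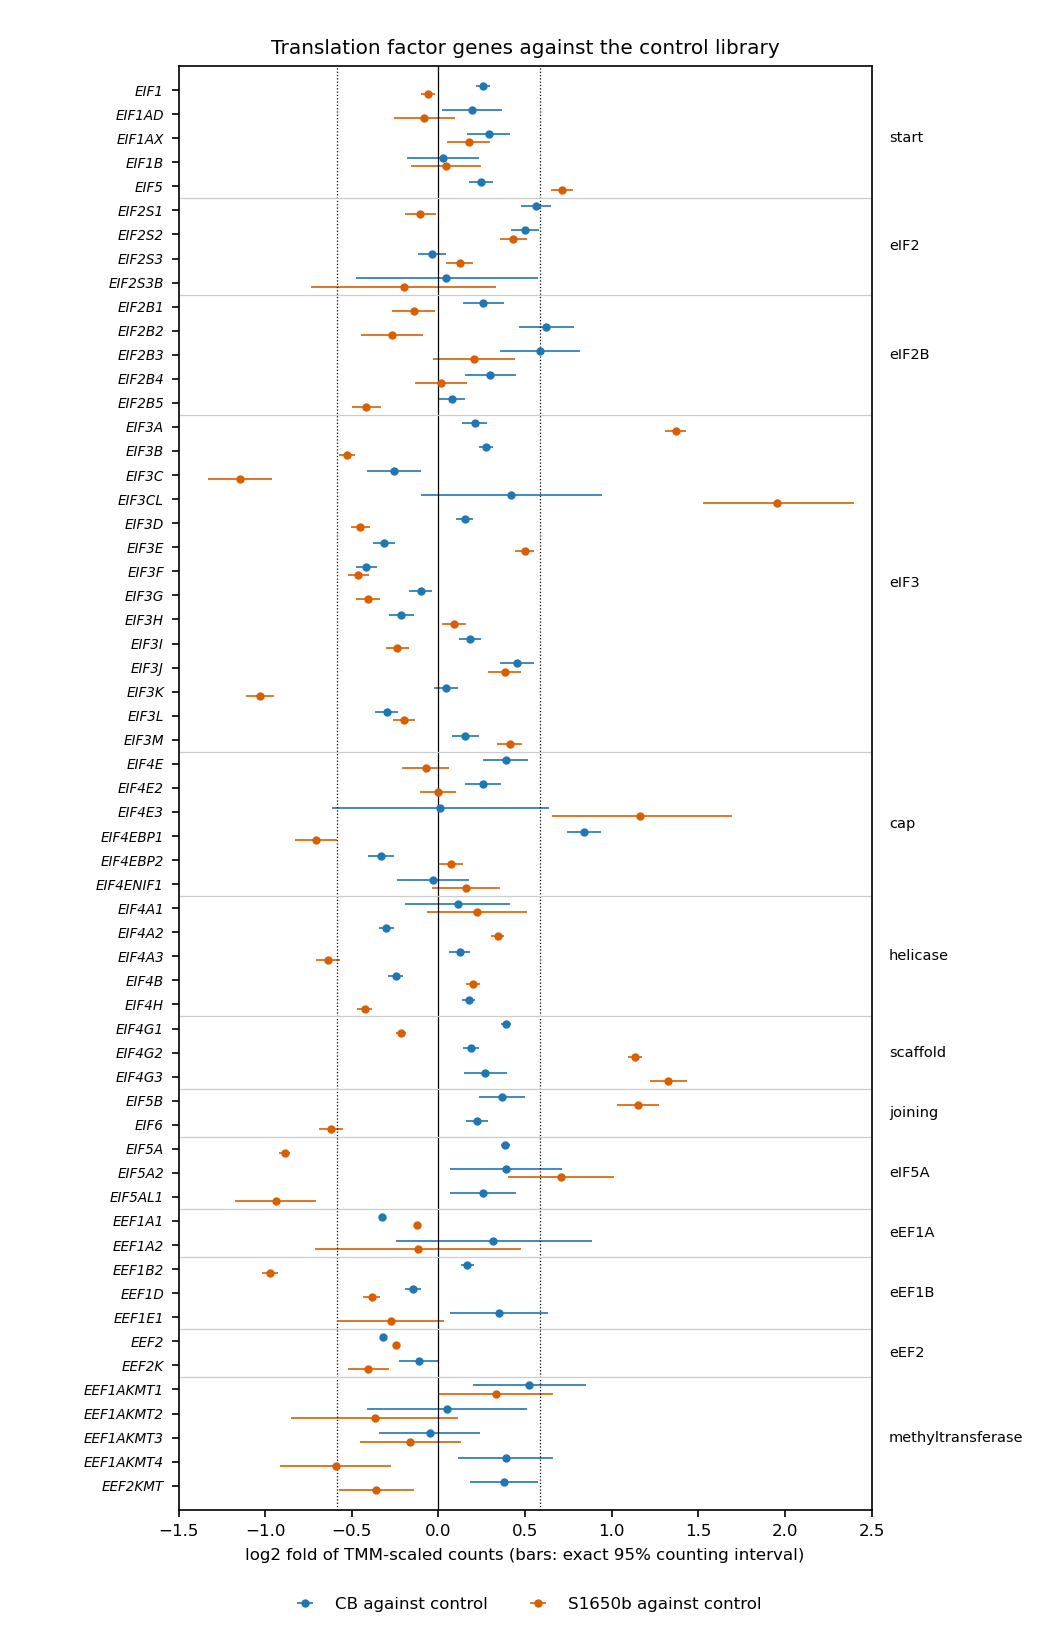
Log2 folds of the 59 members past the filter against the control library, grouped by role, with CB in blue and S1650b in orange; bars are exact 95% counting intervals and dotted lines mark a fold of 1.5 in either direction. CB folds lie between 0.749 and 1.79, while S1650b folds range from 0.452 to 3.87.

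The 5 tested genes grouped with start codon selection had CB folds over 1. Intervals lay above 1 for 4 of them, beside 27.7% of all genes. EIF1AD was grouped by its symbol and is not counted among the factors in their own right. EIF1, which guards the fidelity of start codon choice, had 8921, 10810 and 9661 counts in control, CB and S1650b. Its fold was 1.19 (1.16 to 1.23) in CB and 0.959 (0.931 to 0.987) in S1650b, a value that became 1.10 with total-count scaling. EIF5, the GTPase-activating protein for eIF2, had 2872, 3457 and 5320 counts. It was higher in S1650b, at 1.64 (1.57 to 1.72), but 1.03 once the length and GC trends were removed. EIF1AX (1.22 and 1.13 in CB and S1650b, the second 0.822 with both trends removed), EIF1AD (1.14 and 0.945, the second 1.09 with both removed) and EIF1B (1.02 and 1.03) were called in neither comparison.

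Genes of the eIF2 complex gave CB values from near the control to just under the call. EIF2S1, the alpha subunit that stress kinases phosphorylate, had 1864, 2797 and 1960 counts in control, CB and S1650b. Its CB fold of 1.48 (1.39 to 1.57) stood just under the call, and DESeq2 scaling put it past. The S1650b fold was 0.931 (0.873 to 0.992), which became 1.06 with total-count scaling and a lower call, 0.652, with both trends removed. The gene was lower in S1650b than in CB, at 0.630 (0.594 to 0.667), or 0.719 and not called with total-count scaling. EIF2S2, the beta subunit, had 2103, 3016 and 3208 counts and folds of 1.41 (1.34 to 1.49) in CB and 1.35 (1.28 to 1.43) in S1650b, the second 1.54 and a higher call with total-count scaling. EIF2S3, the gamma subunit that binds GTP and the initiator tRNA, had 2446, 2418 and 3007 counts and folds of 0.974 (0.920 to 1.03) and 1.09 (1.03 to 1.15), the second 0.987 with both trends removed. The first of these intervals spanned 1, so the 3 subunit genes did not share one CB value. The near-identical retrocopy EIF2S3B had 62, 65 and 61 counts, and adding it left the CB fold of EIF2S3 at 0.975.

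All 5 eIF2B subunit genes had CB intervals above 1, and all 5 had intervals below 1 in S1650b against CB. Over all genes these shares were 27.7% and 38.3%. Among genes with a mean of at least 10 CPM, 37.1% had CB intervals above 1. With total-count scaling, 3 of the 5 had intervals below 1 in S1650b against CB. EIF2B2, the beta subunit, had 530, 828 and 498 counts and was higher in CB at 1.54 (1.38 to 1.72), with 0.832 (0.735 to 0.942) in S1650b. EIF2B3, the gamma subunit, had 261, 398 and 340 counts and was higher in CB at 1.5 (1.28 to 1.76), at the edge of the call and under it after removal of the length trend. EIF2B1 (fold 1.20 in CB), EIF2B4 (1.23) and the catalytic subunit gene EIF2B5 (1.06) were not called. In S1650b, EIF2B5 had 2211 counts beside 2612 in the control, a fold of 0.749 (0.708 to 0.793) that was a lower call, 0.642, with the length trend removed. It was no call with both trends removed (0.674) or with total-count scaling (0.856).

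**Figure D2:**
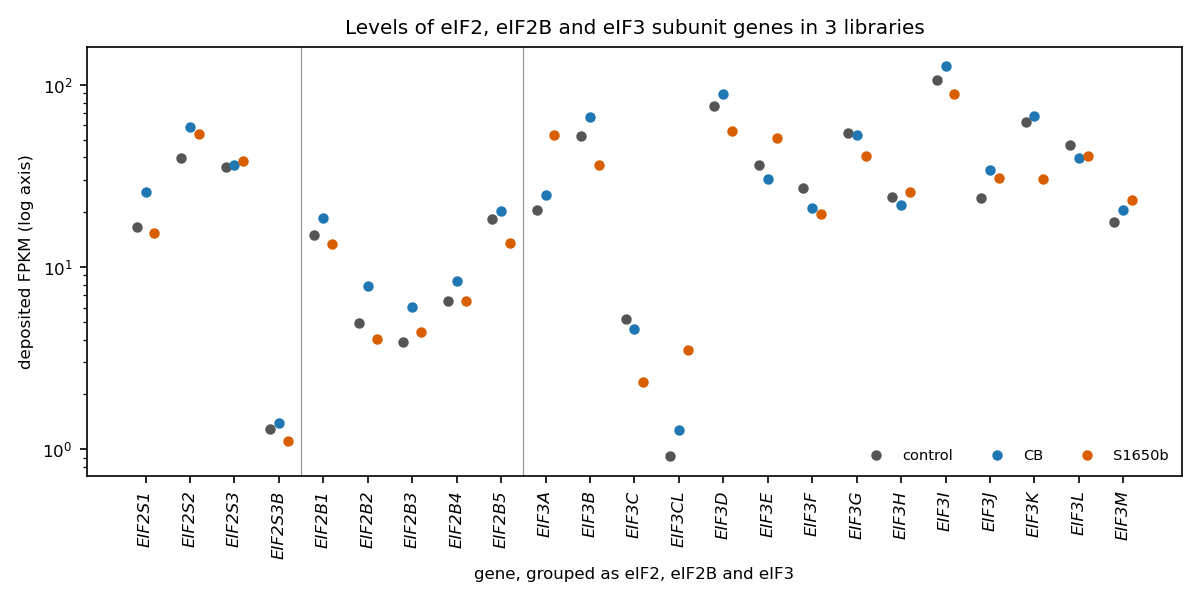
Deposited FPKM, a level per length of exon, of the eIF2, eIF2B and eIF3 subunit genes on a log axis, 1 point per library (control grey, CB blue, S1650b orange). All 5 eIF2B genes have their highest point in CB, EIF3A is highest in S1650b at 52.8 FPKM, and EIF3K is lowest there at 30.4.

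Genes of eIF3, the multi-subunit complex that bridges the small ribosomal subunit and eIF4G, spread widely in S1650b. EIF3A, its largest scaffold subunit, had 2898, 3399 and 8459 counts in control, CB and S1650b, so S1650b stood apart from the other two libraries. Its fold was 1.16 (1.10 to 1.21) in CB and it was higher in S1650b at 2.58 (2.48 to 2.70), or 1.85 with both trends removed. EIF3K, a small subunit, had 3465, 3623 and 1917 counts. It was lower in S1650b at 0.490 (0.463 to 0.518), or 0.644 with both trends removed, and its CB fold was 1.03 (0.983 to 1.08). EIF3B, a core subunit that binds EIF3A, had 9408, 11539 and 7370 counts, with 0.694 (0.673 to 0.715) in S1650b against control, a lower call at 0.642 with both trends removed, and a lower call against CB at 0.574 (0.557 to 0.591). EIF3E had 4324, 3529 and 6895 counts and was higher in S1650b than in CB at 1.76 (1.69 to 1.83), although 1.20 with both trends removed.

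EIF3F, a core-octamer subunit and 1 of those with a pyrimidine run, had the lowest CB fold of all members, 0.749 (0.719 to 0.782), from 5073 and 3859 counts. Its S1650b count was 4158, a fold of 0.726 (0.696 to 0.756), which was a lower call at 0.423 with both trends removed. CB folds were also under 1 for EIF3E (0.804), EIF3L (0.813), EIF3H (0.863) and EIF3G (0.932), and over 1 for EIF3J (1.37), EIF3B (1.21), EIF3A (1.16), EIF3I (1.14), EIF3D (1.11) and EIF3M (1.11). None of these reached the call, and the eIF3 genes did not move as 1 block in CB. EIF3D, which can itself contact the cap of some RNAs, was lower in S1650b than in CB at 0.659 (0.635 to 0.683), a call lost with total-count scaling (0.752) and with both trends removed (0.763). Other genes overlap 51.8% of the EIF3L exon length in the annotation, so its count is uncertain.

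EIF3C and EIF3CL are near-identical genes on chromosome 16 whose reads can be split between them by the counting. EIF3C had 722, 614 and 369 counts and was lower in S1650b at 0.452 (0.398 to 0.514), while EIF3CL had 56, 76 and 245 counts and was higher at 3.87 (2.89 to 5.28). These were the lowest and highest S1650b folds of all members, in opposite directions. Summed, the pair had 778, 690 and 614 counts and folds of 0.874 in CB and 0.699 in S1650b, which reaches no call. EIF3C made up 92.8% of the pair's counts in the control, 89.0% with CB and 60.1% with S1650b.

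At the cap, EIF4EBP1 gave the highest CB fold of all members. The gene lies at chr8:38030341-38060365 (GRCh38, GENCODE annotation) and encodes 4E-BP1, which binds eIF4E and is released from it when mTOR phosphorylates it. It had 1360 counts in the control, 2473 with CB and 940 with S1650b. CB was thus the highest and S1650b the lowest library. The fold was 1.79 (1.68 to 1.92) in CB, a higher call that was 2.0 with both trends removed. In S1650b it was 0.612 (0.563 to 0.665), a lower call that became 0.890 with both trends removed and 0.699 with total-count scaling, neither a call. EIF4EBP2, its paralog, had 3007, 2426 and 3576 counts and folds of 0.795 (0.753 to 0.839) and 1.05 (1.00 to 1.11), the second 0.760 with both trends removed. Per length, EIF4EBP1 made up 75.4% of the summed FPKM of the pair in the control, 87.3% with CB and 64.0% with S1650b. These shares were not corrected for the length and GC trends. With both removed, the S1650b fold of EIF4EBP1 (0.890) was over that of EIF4EBP2 (0.760), so the lower S1650b share depends on the trends.

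The calls of the cap-binding protein genes in S1650b depended on the trends. EIF4E had 837, 1112 and 898 counts, with 1.31 (1.20 to 1.43) in CB and 0.95 (0.864 to 1.04) in S1650b, where it was a lower call at 0.479 with both trends removed and 1.09 with total-count scaling. EIF4E2, a homolog linked to translational repression, had 1415, 1717 and 1598 counts and folds of 1.20 and 1.00. EIF4E3, the least abundant of the 3, had 45, 46 and 114 counts and was higher in S1650b at 2.24 (1.58 to 3.24), but 1.19 with both trends removed. EIF4ENIF1, which carries eIF4E into the nucleus, had folds of 0.980 and 1.12.

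The eIF4G scaffolds shifted in composition in S1650b. EIF4G1, the main scaffold, had 18911, 25163 and 18416 counts and folds of 1.31 (1.29 to 1.34) in CB and 0.862 (0.845 to 0.880) in S1650b, and it was lower in S1650b than in CB at 0.658 (0.645 to 0.670), a call lost with total-count scaling (0.751). EIF4G2, which lacks the eIF4E-binding part, had 6861, 7942 and 17003 counts and was higher in S1650b at 2.19 (2.13 to 2.26). EIF4G3 had 962, 1178 and 2727 counts and was also higher, at 2.51 (2.33 to 2.70). With both trends removed, EIF4G3 stayed past the call at 1.74 and EIF4G2 did not at 1.32. Within a library, where no scaling enters, EIF4G1 made up 70.7% of the 3 genes' counts in the control (70.2 to 71.3), 73.4% with CB (72.9 to 73.9) and 48.3% with S1650b (47.8 to 48.8). EIF4G2 made up 25.7% in the control and 44.6% in S1650b, and EIF4G3 3.60% and 7.15%. These shares were not corrected for the length and GC trends. With both removed, the S1650b fold of EIF4G1 was 0.842, beside 1.32 for EIF4G2 and 1.74 for EIF4G3.

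**Figure D3:**
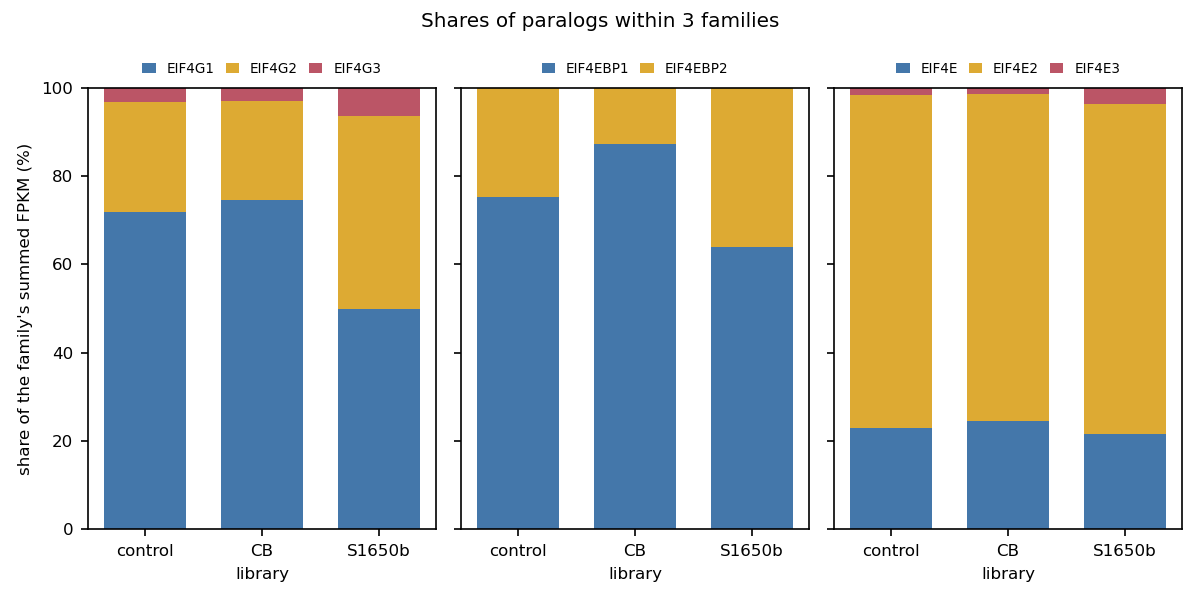
Shares of each paralog in the summed FPKM of its family, per library, for the eIF4G scaffolds, the 4E-BP genes and the eIF4E genes. EIF4G1 is 71.9% in the control and 49.8% in S1650b, and EIF4EBP1 is 75.4%, 87.3% and 64.0% in control, CB and S1650b. The shares are not corrected for the length and GC trends.

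Among the helicase genes, EIF4A2 had 9769, 8047 and 14002 counts. Its folds were 0.812 (0.788 to 0.836) in CB and 1.27 (1.24 to 1.30) in S1650b, the second 0.859 with both trends removed. It was higher in S1650b than in CB at 1.56 (1.52 to 1.61), or 1.07 with both trends removed. EIF4B, an RNA-binding partner that stimulates eIF4A, gave the same order, with 9440, 8073 and 12256 counts and folds of 0.843 (0.818 to 0.868) and 1.15 (1.12 to 1.18), the second 0.981 with both trends removed. EIF4H, the related cofactor, gave the opposite order, with 10437, 11952 and 8774 counts, and was lower in S1650b than in CB at 0.660 (0.642 to 0.678), a call lost with total-count scaling (0.753) and with both trends removed (0.817). EIF4A3, the helicase of the exon junction complex rather than of initiation, was lower in S1650b at 0.643 (0.614 to 0.674), and no longer with total-count scaling. EIF4A1 had only 176, 193 and 232 counts, a level of 1.67 FPKM in the control, beside 80.4 for EIF4A2. Other annotated genes, chiefly SENP3-EIF4A1 and AC016876.2, cover 48.6% of its exon length. SENP3-EIF4A1 had 2, 10 and 12 counts, and AC016876.2 had 3, 3 and 3. The 13 EIF4A1 pseudogenes had 350, 505 and 267 counts. Whether reads were lost to such rows was not tested.

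Both subunit-joining factors were called in S1650b, in opposite directions. EIF5B, the GTPase that joins the ribosomal subunits, had 796, 1042 and 1999 counts and was higher at 2.22 (2.05 to 2.42). EIF6, which keeps free large subunits from joining, had 3754, 4443 and 2761 counts and was lower at 0.651 (0.620 to 0.684). With both trends removed the folds were 1.35 and 0.951, so neither call held. In CB, the 2 genes had folds of 1.29 and 1.17.

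EIF5A, which relieves ribosome stalls and carries the amino acid hypusine, had the next highest level after EEF1A1 and EEF2, at 390.0 FPKM in the control, 531.9 with CB and 209.3 with S1650b. Its counts were 21751, 28838 and 13282. The CB fold was 1.31 (1.28 to 1.33), and the gene was lower in S1650b at 0.541 (0.529 to 0.552), or 0.760 with both trends removed. Its near-identical retrocopy EIF5AL1 had 409, 496 and 241 counts and was lower in S1650b at 0.522 (0.443 to 0.613). The sum of the 2 genes was 1.85-fold lower in S1650b than in the control. EIF5A2, a paralog with restricted expression, had 140, 186 and 258 counts and was higher in S1650b at 1.63 (1.32 to 2.02), or 1.10 with both trends removed. The hypusine enzyme gene DOHH followed the order of EIF5A, with 861, 1229 and 486 counts and a lower call in S1650b at 0.50 (0.446 to 0.559), which was 0.718 and no call with both trends removed.

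The 2 elongation factors that deliver aminoacyl-tRNA and move the ribosome, EEF1A1 and EEF2, were the members with the highest levels, at 1401 and 1038 FPKM in the control, ahead of EIF5A, EEF1B2 (278.3), EIF4H (165.1) and EIF1 (124.3). EEF1A1 (chr6:73515750-73523797, GRCh38) had 165085, 133773 and 170988 counts. Its CB fold was 0.798 (0.793 to 0.804). Its S1650b fold was 0.917 (0.911 to 0.923), which became 1.05 with total-count scaling and 0.782 with both trends removed. EEF2 (chr19:3976056-3985469) had 82855, 67394 and 79023 counts, with 0.801 (0.793 to 0.810) in CB and 0.844 (0.836 to 0.853) in S1650b. The second was 0.965 with total-count scaling and 1.10 with both trends removed. Neither gene reached the call in either comparison, although CB was the lowest library by count for both. Together they took 1.20% of all counts in the control, 0.960% with CB and 1.22% with S1650b, while the other members took 0.926%, 1.03% and 0.994%. The 39 annotated EEF1A1 pseudogenes had 6333, 5626 and 6958 counts, and adding them gave a CB fold of 0.801. EEF1A2, the muscle and neuron form, had 49, 62 and 51 counts.

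Of the exchange factor of eEF1A, the gene of 1 subunit was called in S1650b. EEF1B2, the catalytic beta subunit, had 10561, 12034 and 6088 counts. It was lower in S1650b at 0.510 (0.494 to 0.527), and at 0.605 with both trends removed, while its CB fold was 1.12 (1.09 to 1.15). EEF1D had 7660, 7030 and 6627 counts and folds of 0.904 and 0.766, the second a lower call at 0.584 with the length trend removed. That fold was no call with both trends removed (0.724) or with total-count scaling (0.875). EEF1G, the gamma subunit, cannot be read from this table: the gene AP002990.1 covers 99.9% of its exon length, and that gene had 89, 80 and 70 counts. VARS1, the valyl-tRNA synthetase that binds eEF1B, had 2869, 4305 and 1908 counts, with 1.48 (1.41 to 1.55) in CB and a lower call in S1650b at 0.589 (0.555 to 0.624), which was no call with both trends removed (0.670) or with total-count scaling (0.673). Its CB fold was 1.55, a higher call, with both trends removed. EEF1E1, a scaffold protein of the tRNA synthetase complex, had 185, 239 and 173 counts and was lower in S1650b than in CB at 0.650 (0.532 to 0.794), a call lost with total-count scaling (0.743). EEF2K, the kinase that inhibits eEF2, had folds of 0.926 and 0.756, the second a lower call at 0.654 with both trends removed.

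The lysine methyltransferase genes of eEF1A and eEF2 were of low abundance. EEF1AKMT1 had the highest CB fold of these, 1.44 (1.15 to 1.81), from 133 and 194 counts. EEF1AKMT2 and EEF1AKMT3 had 70 to 84 and 195 to 201 counts per library and were not called, although EEF1AKMT2 was a lower call in S1650b with both trends removed (0.582 against control and 0.573 against CB). EEF1AKMT4 had 195, 259 and 146 counts and was lower in S1650b at 0.663 (0.531 to 0.826), but 0.970 with both trends removed, and other genes cover 46.8% of its exon length. EEF2KMT was lower in S1650b than in CB at 0.601 (0.521 to 0.692), a call lost with total-count scaling (0.686) and with both trends removed (0.774), with 29.3% of its exon length under ALG1 on the opposite strand.

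Among tested members with a start sequence, those with a pyrimidine run had a lower median CB fold than those without. Across the 11 with a run the median CB fold was 0.974, with 5 intervals below 1 (EEF1A1, EEF2, EIF3F, EIF4A2 and EIF4B) and 3 above (EEF1B2, EIF3D and EIF3M). Across the 35 tested members without a run the median was 1.19, with 27 intervals above 1 and 2 below (EIF3C and EIF4EBP2). Over all genes past the filter that have a start sequence, the medians were 0.960 for 790 genes with a run and 1.02 for 9821 without. The gap between the medians was therefore in the same direction over all genes, on a smaller scale. With both trends removed the member medians were 0.949 and 1.17. In S1650b the medians were 0.871 and 0.945, with both kinds of member spread on both sides of 1. EEF1B2, which has the longest run (16 bases), did not share the low CB values. The split was chosen with the values known and has no test.

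**Figure D4:**
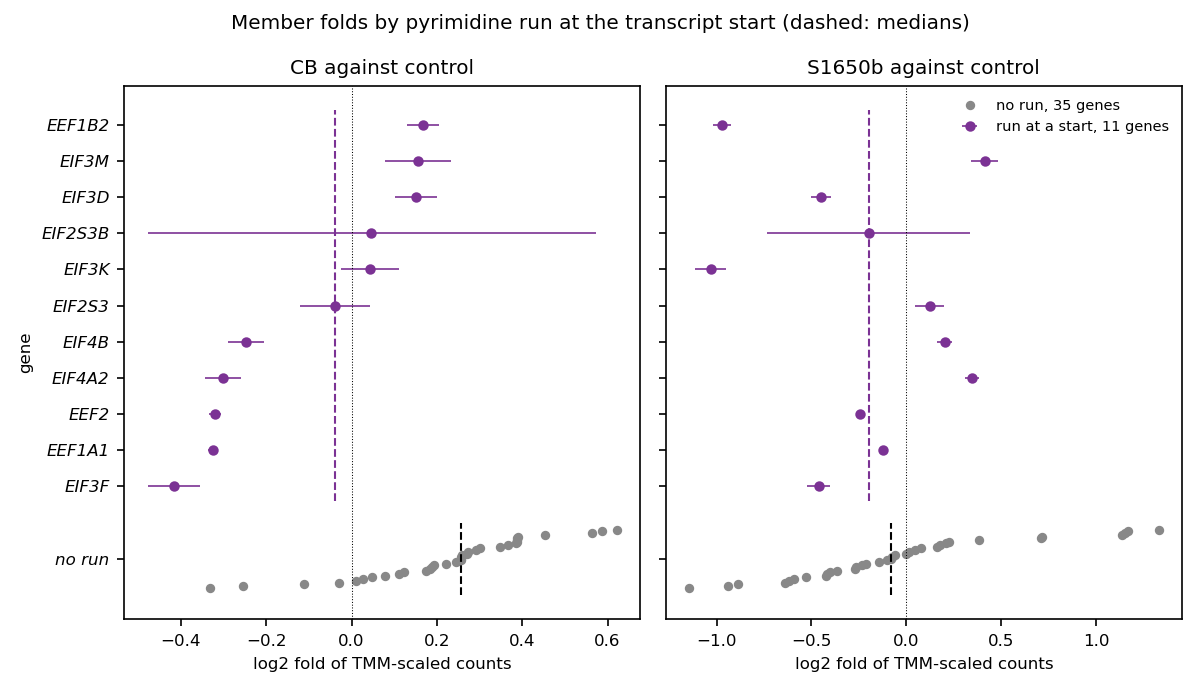
Log2 folds against the control in CB (left) and S1650b (right) for the 11 members with a pyrimidine run at a RefSeq start, by gene in order of the CB fold with exact 95% counting intervals, and for the 35 without (grey, bottom row); dashed lines are medians. In CB the purple median fold is 0.974 and the grey one 1.19. Tested members without a start sequence are not shown.

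Length and base composition moved with the S1650b folds. Across the 59 members, Spearman's rho of the S1650b log2 fold was -0.53 with the GC content of the longest transcript and 0.31 with exon length, beside -0.44 and 0.31 over all genes past the filter. These describe genes within the same pair of libraries, which are not independent replicates. In CB the member values were 0.04 and -0.27, beside -0.11 and 0.04 over all genes. In S1650b the median log2 fold of all genes fell from 0.60 in the lowest of 8 GC classes to -0.42 in the highest. Of the 17 members called in S1650b against control, 8 kept the call with both trends removed (EIF3A, EIF3C, EIF3CL, EIF3K, EIF4A3, EIF4G3, EIF5AL1 and EEF1B2). The same step added 6 lower calls (EIF3B, EIF3F, EIF2S1, EEF2K, EIF4E and EEF1AKMT2) and 0 higher ones. The part of RNA quality or library preparation in these trends was not tested.

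**Figure D5:**
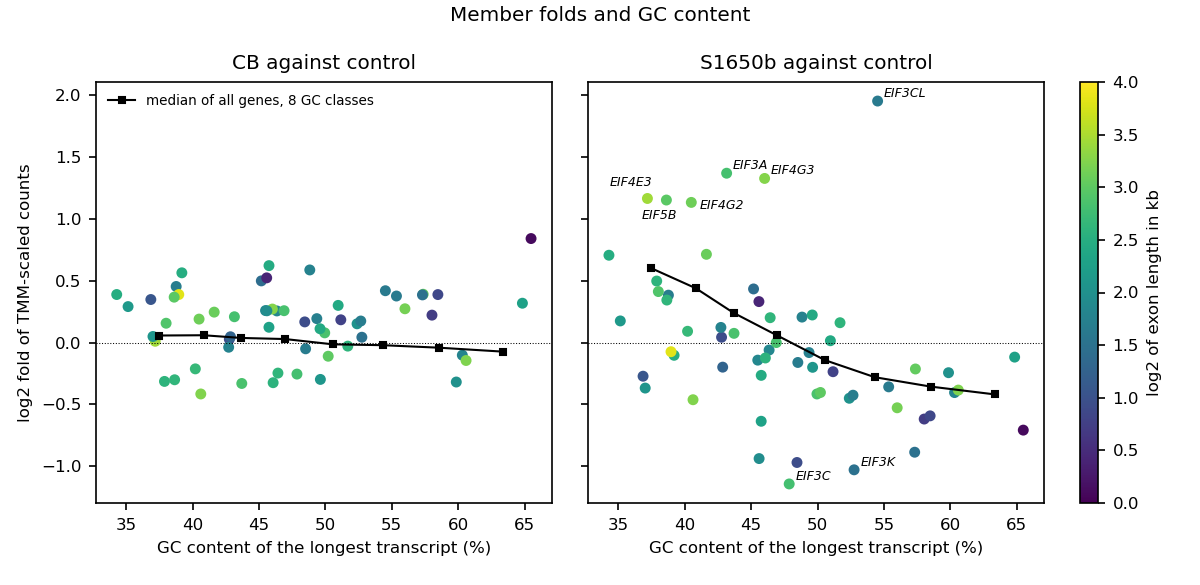
Log2 fold of each member against the GC content of its longest transcript, for CB (left) and S1650b (right), coloured by exon length; black squares join the medians of all genes in 8 GC classes. The black line is nearly flat in CB and descends from 0.60 to -0.42 in S1650b.

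Of 36 other genes of the pathway, 35 passed the filter. In CB, 0 were higher and 2 were lower: PDCD4, an inhibitor of eIF4A, at 0.627 (0.581 to 0.677) from 1721 and 1095 counts, and PAIP2B, an inhibitor of poly(A)-binding protein, at 0.531 (0.414 to 0.679) from 191 and 103 counts. Over all genes, 4.86% were higher and 10.5% lower in CB, beside 0% and 5.71% of these 35. In S1650b, 8 were higher (22.9%, beside 22.1% of all genes) and 6 lower (17.1%, beside 19.2%). Both S1650b shares were thus near those of all genes. Of the 4 eIF2 kinases, 3 were higher there: EIF2AK4, which senses uncharged tRNA, had 747, 825 and 2033 counts and a fold of 2.41 (2.21 to 2.62), EIF2AK3 (PERK), which senses unfolded protein in the endoplasmic reticulum, 2.01 (1.68 to 2.41), and EIF2AK2 (PKR), which senses double-stranded RNA, 1.79 (1.67 to 1.91). EIF2AK1, the heme-regulated kinase, was not called at 1.42 (1.34 to 1.49). With both trends removed, EIF2AK4 and EIF2AK3 were at 1.62 and 1.66, and EIF2AK2 at 0.960. The phosphatase subunit genes PPP1R15A and PPP1R15B, which reverse eIF2 phosphorylation, were not called in either comparison (1.23 and 1.22 in CB), although PPP1R15A was a higher call in S1650b, at 1.54, with both trends removed.

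All 3 listed scanning helicases were higher in S1650b. DDX3X had 1274, 1536 and 4897 counts and a fold of 3.4 (3.20 to 3.62), DHX29, which works with eIF3 on structured leaders, 3.39 (2.93 to 3.93), and DHX9 1.68 (1.59 to 1.78). Removal of both trends gave 1.68 for DDX3X, 2.55 for DHX29 and 1.35 for DHX9. ABCE1, the ribosome recycling factor, was higher at 1.63 (1.52 to 1.75), or 1.09 with both trends removed. On the mTOR arm, RPS6KB1, the S6 kinase, was higher at 2.19 (1.92 to 2.51), while its paralog RPS6KB2 (0.654), the mTOR activator RHEB (0.654) and the mTORC1 subunit gene AKT1S1 (0.659) were lower. None of these 4 calls held with both trends removed (1.34, 0.745, 0.706 and 0.767), and the 3 lower ones did not hold with total-count scaling. DHPS, the first hypusine enzyme, was lower at 0.666 (0.491 to 0.900), but 0.930 with both trends removed and 0.761 with total-count scaling, neither a call. In S1650b against CB, LARP1, which binds TOP RNAs, was lower at 0.588 (0.568 to 0.609), or 0.672 and not called with total-count scaling, with 1.37 (1.32 to 1.42) in CB against control, and MCTS1, a reinitiation factor, was lower at 0.539 (0.502 to 0.579). Against CB, S1650b was higher for both genes that were lower in CB than in the control, PDCD4 at 2.18 (2.03 to 2.34) and PAIP2B at 2.22 (1.76 to 2.82). EIF2AK1 was also higher there, at 1.51 (1.43 to 1.59), a call lost with both trends removed (1.36).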

How the data were processed

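Poly(A) selection, strand use, aligner and counter were not given in the sources used here. RNA was taken with Trizol and libraries made with a NEBNext Ultra kit, per the labels' protocols. The deposited table holds whole-number counts per Ensembl gene for the 3 libraries, and a second table the deposited FPKM. CASAVA 1.7 and the mouse builds mm8 and mm9 stand in the submitters' processing notes, although the gene identifiers are human. The lengths implied by count and FPKM equal the exon-union lengths of GENCODE 29 (GRCh38) within 0.1% for all genes checked, so that release gave symbols, types and positions.

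Counts were scaled with TMM in edgeR 4.0.16 (R 4.3.3, control as reference), genes kept at 1 CPM in at least 1 library, and folds given exact conditional binomial (Clopper-Pearson) 95% intervals in scipy 1.17.1. Medians of log2 folds use 0.5 added counts. edgeR's quasi-likelihood test was not used, since 1 library per group leaves no residual spread. Length and GC trends were removed by lowess (span 30%, statsmodels 0.14.6). Scaling by total counts, DESeq2 1.42.0 size factors and upper quartiles, FPKM ratios, other filters and other fold requirements were tried as alternatives. Levels of different genes were compared as FPKM; shares of counts are given only within a library or a gene family and are not per length. On simulated counts for 14619 genes in the CB comparison, 48% of genes changed 1.5-fold and 88% of those changed 2-fold were called, and 0.742% of unchanged genes. In the S1650b comparison against control these were 46%, 90% and 0.652%. A gene changed exactly 1.5-fold lies at the edge of the call. The counting intervals held the simulated fold for 95.8% of genes in the CB comparison, so these counts carried little spread beyond counting error. The rates therefore leave out the spread between cultures and are not rates of false calls in the real libraries.

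Members and lists were chosen with earlier results of these data known. Named genes are all members past the filter by role, those with extreme folds, every called member and the called pathway genes; the start-run split, the summing of copies and the background above 10 CPM were added after the values were seen. The level of a Y-linked member is not given.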

Additional observations from a re-analysis of the deposited data

How the results depend on the processing

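Counts of called members depended on the fold required, on the scaling and on the removal of the length and GC trends. At a fold of at least 2, CB had 0 members higher and 0 lower, beside 1.71% and 5.53% of all genes. S1650b then had 6 higher and 2 lower than the control, beside 12.1% and 7.86%, and 4 higher and 5 lower than CB, beside 15.8% and 9.54%. At a ratio of at least 5 to 4, CB had 15 higher and 3 lower, beside 13.6% and 17.1%, and S1650b had 14 higher and 18 lower than the control, beside 29.3% and 31.0%. Scaling by total counts gave 5 lower against the control and 10 lower against CB for S1650b. Removing the GC trend gave 4 higher in S1650b against CB, beside 22.4% of all genes. Removing length and GC trends gave 3 higher against the control and 2 higher against CB. Of the 17 calls of S1650b against control, total-count scaling lost 4 and added 3, and removing both trends lost 9 and added 6. Of the 25 against CB, these steps lost 7 and 11. Upper-quartile scaling moved the all-gene median log2 fold of S1650b against control by -0.12. No member called in the 3 comparisons changed direction while still called under the scalings or trend removals run. The cause of these changes was not tested. No paired analysis was possible because each condition is 1 library, and leaving out a replicate was not possible for the same reason. Culture-to-culture spread is unknown.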
